A study of Mus musculus with 6 samples.

Results

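The matrix proteases, their inhibitors and the lysyl oxidases were followed in hearts of male mice aged 6 days after birth (FVB in the labels, FVB/N in the methods), 3 of them hSRY-ON and 3 hSRY-OFF. Members were all probes whose gene symbol began with Mmp, Timp or Adam and a digit, or with Adamts, which takes in Adamtsl, together with those for Lox and its Loxl relatives. They came to 103 probes of 73 genes, out of 25697 probes of 18138 genes on the array. By family these were 29 probes of 22 matrix metalloproteinase genes (Mmp), 6 probes of 4 tissue inhibitors (Timp), 42 probes of 26 Adam genes, 22 probes of 17 Adamts and Adamtsl genes and 4 probes of 4 lysyl oxidases. The study asked how gene programs of the heart change when the human testis-determining factor SRY is made in cells that normally lack it.

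The hSRY-ON mice carried a single copy of Signalox-hSRY in the H11 locus, in which the strong, broadly active CAG promoter drives FLAG-tagged human SRY together with EGFP once Cre has removed a DsRed2 cassette. The methods call these mice fully recombined, because Cre came with the oocyte of a Ddx4-Cre mother and acted in the early embryo. How complete recombination was in these hearts was not measured here. The hSRY-ON mice chosen for the arrays had not inherited Ddx4-Cre themselves. By the methods, hSRY-OFF mice carry the same transgene without recombination and therefore make DsRed2 and no human SRY, whereas the control littermates of the same study lack Signalox-hSRY. Which of these definitions the control hearts meet is uncertain. A difference due to DsRed2, to EGFP or to Cre in the oocyte cannot be told apart from one due to SRY. The study also reports that hSRY-ON pups suckled little, lacked milk in the stomach and were retarded in growth by the age of these arrays. A difference that follows from poor feeding or slow growth cannot be told apart from an effect of SRY within the heart. Each array held RNA from the tissue of 1 heart, so a lower level can come from fewer cells of a type or from less RNA per cell, and these cannot be told apart. The array carries a probe for mouse Sry, which was below background on all 6 arrays, and the human transgene was not measured.

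Metalloproteinases of the Mmp family are zinc enzymes that are secreted or held at the cell surface as inactive precursors and, once activated, cut collagens, elastin and proteoglycans. Tissue inhibitors of metalloproteinases bind their active site, and some also block Adam and Adamts enzymes. Adam proteins are membrane-anchored and cut other proteins off the cell surface, although several have lost the catalytic residues, whereas Adamts enzymes are secreted into the matrix and trim procollagens and proteoglycans. Lysyl oxidases act at the other end of matrix turnover and cross-link collagen and elastin fibres, so that a matrix becomes stiffer and harder to digest. In the heart these families take part in the growth of valves and walls and in scarring after injury.

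The promoters of the 4 tissue inhibitors are shown because all 4 genes were higher in hSRY-ON hearts, and those of Mmp3 and Mmp13 because they stand for a group of metalloproteinases that was hardly detected in either condition. Each sequence holds the 250 bases before the RefSeq start of the gene in build GRCm38.p6, read 5′ to 3′ on the gene's own strand. They lie at chrX:20869916-20870165 on the plus strand for Timp1, at chr11:118355412-118355661 on the minus strand for Timp2, at chr10:86300162-86300411 on the plus strand for Timp3 and at chr6:115252206-115252455 on the minus strand for Timp4. The 2 metalloproteinase promoters lie at chr9:7445572-7445821 for Mmp3 and at chr9:7272264-7272513 for Mmp13, both on the plus strand. Capitals mark matches, on either strand, to 4 motifs: AACAAT, a core of the sites that SRY and SOX proteins bind, TGACTCA, the site of AP-1 factors, GGGCGG, the GC box, and TATAAA, the TATA box.
Timp1: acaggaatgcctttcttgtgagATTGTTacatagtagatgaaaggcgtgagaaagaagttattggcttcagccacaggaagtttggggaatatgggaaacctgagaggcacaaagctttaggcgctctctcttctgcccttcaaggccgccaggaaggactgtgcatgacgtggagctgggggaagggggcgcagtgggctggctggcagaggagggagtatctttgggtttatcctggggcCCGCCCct
Timp2: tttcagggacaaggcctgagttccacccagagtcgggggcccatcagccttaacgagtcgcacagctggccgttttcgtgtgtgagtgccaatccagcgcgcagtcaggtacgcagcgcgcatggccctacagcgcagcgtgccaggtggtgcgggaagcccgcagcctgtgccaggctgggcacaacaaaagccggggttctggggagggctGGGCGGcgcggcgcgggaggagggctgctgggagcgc
Timp3: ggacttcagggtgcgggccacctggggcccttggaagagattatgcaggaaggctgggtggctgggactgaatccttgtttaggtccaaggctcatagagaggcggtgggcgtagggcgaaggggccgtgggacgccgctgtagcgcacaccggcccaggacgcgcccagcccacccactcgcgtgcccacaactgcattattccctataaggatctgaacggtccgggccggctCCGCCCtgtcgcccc
Timp4: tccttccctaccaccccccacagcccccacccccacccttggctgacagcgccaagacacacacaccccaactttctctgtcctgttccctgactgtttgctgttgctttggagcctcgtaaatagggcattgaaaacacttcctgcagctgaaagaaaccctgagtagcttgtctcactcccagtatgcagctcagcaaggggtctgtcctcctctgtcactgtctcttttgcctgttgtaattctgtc
Mmp3: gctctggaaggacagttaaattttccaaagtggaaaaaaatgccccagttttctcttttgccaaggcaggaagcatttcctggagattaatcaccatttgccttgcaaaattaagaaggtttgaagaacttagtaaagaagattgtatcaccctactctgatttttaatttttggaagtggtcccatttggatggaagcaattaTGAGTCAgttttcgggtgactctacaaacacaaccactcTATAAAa
Mmp13: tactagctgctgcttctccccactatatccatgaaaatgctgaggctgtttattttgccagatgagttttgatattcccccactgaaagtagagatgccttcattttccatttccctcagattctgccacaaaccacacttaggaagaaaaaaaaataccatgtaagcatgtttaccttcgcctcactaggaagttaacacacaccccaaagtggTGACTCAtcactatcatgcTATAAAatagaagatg

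In these windows Timp1 held AACAAT on the reverse strand, 228 bases before its start, and a GC box 8 bases before it. Timp2 and Timp3 held a GC box 37 and 15 bases before their starts, and Timp4 held none of the 4 letter strings. Among the promoters of all 27025 genes in the RefSeq table, cut to the same 250 bases, 9.65% held AACAAT, 4.43% TGACTCA, 32.9% GGGCGG and 13% TATAAA. A promoter was found for 43 of the 73 member genes. Of the 10 with a promoter whose transcript was higher in hSRY-ON hearts, 1 held AACAAT, none held TGACTCA and 6 held GGGCGG. Of the 11 that were tested and not higher, none held AACAAT, 1 held TGACTCA and 9 held GGGCGG. Among genes on the array with a promoter, 8.03% held AACAAT, 3.94% TGACTCA and 46.9% GGGCGG. A match is a string of letters and does not show binding.

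The levels below are background-corrected, quantile normalized bead intensities on a log2 scale, and a probe is called differentially expressed where the adjusted p of limma was under 0.05 over all tested probes. A probe was tested when it was above background (detection p under 0.05) on at least 3 of the 6 arrays. Of the member probes, 41 probes of 36 genes met this, 12 probes were above background on 1 or 2 arrays and 50 on none. Of the 41 tested, 20 probes of 17 genes were higher and 3 probes of 3 genes lower in hSRY-ON hearts, and 18 were not called. This is 56.1% called, against 27.5% of all 12970 tested probes, of which 13.8% were higher and 13.7% lower. The median log2 fold change of the tested members was 0.53, and that of all tested probes was 0.00. Without normalization between arrays 38.5% of all called probes were higher in hSRY-ON hearts, in place of 50.1%, with the median of all probes at -0.12, and 15 member probes were then higher and 2 lower.

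The 2 groups of 3 hearts did not overlap in 31 of the 41 tested member probes, 24 with hSRY-ON above hSRY-OFF and 7 with it below, where 45.2% of all tested probes had groups that did not overlap in either direction. Probes seen above background in a single group had to differ to be tested at all. There were 5 of them, Timp4, Adamts17 and the weaker probe of Adamts1 in hSRY-ON hearts and Adam11 and Mmp17 in hSRY-OFF hearts. Among the 26 member probes above background on all 6 arrays, 15 were higher and 1 lower, 61.5% against 30.3% of all probes that met the same demand. Changes of dim probes were smaller on intensities whose background had not been corrected, with log2 fold changes of 0.99 for Timp4, 0.91 for Adam32, 0.81 for Adam9, 0.75 for Adam23, 0.61 for Adamts17, 0.33 for the weaker Adamts1 probe, 0.28 for Adam33, -0.27 for Adam11 and -0.24 for Mmp17. These 9 probes were still called, whereas the dim probe of Adamts13, at 0.18, was not.

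**Figure D1:**
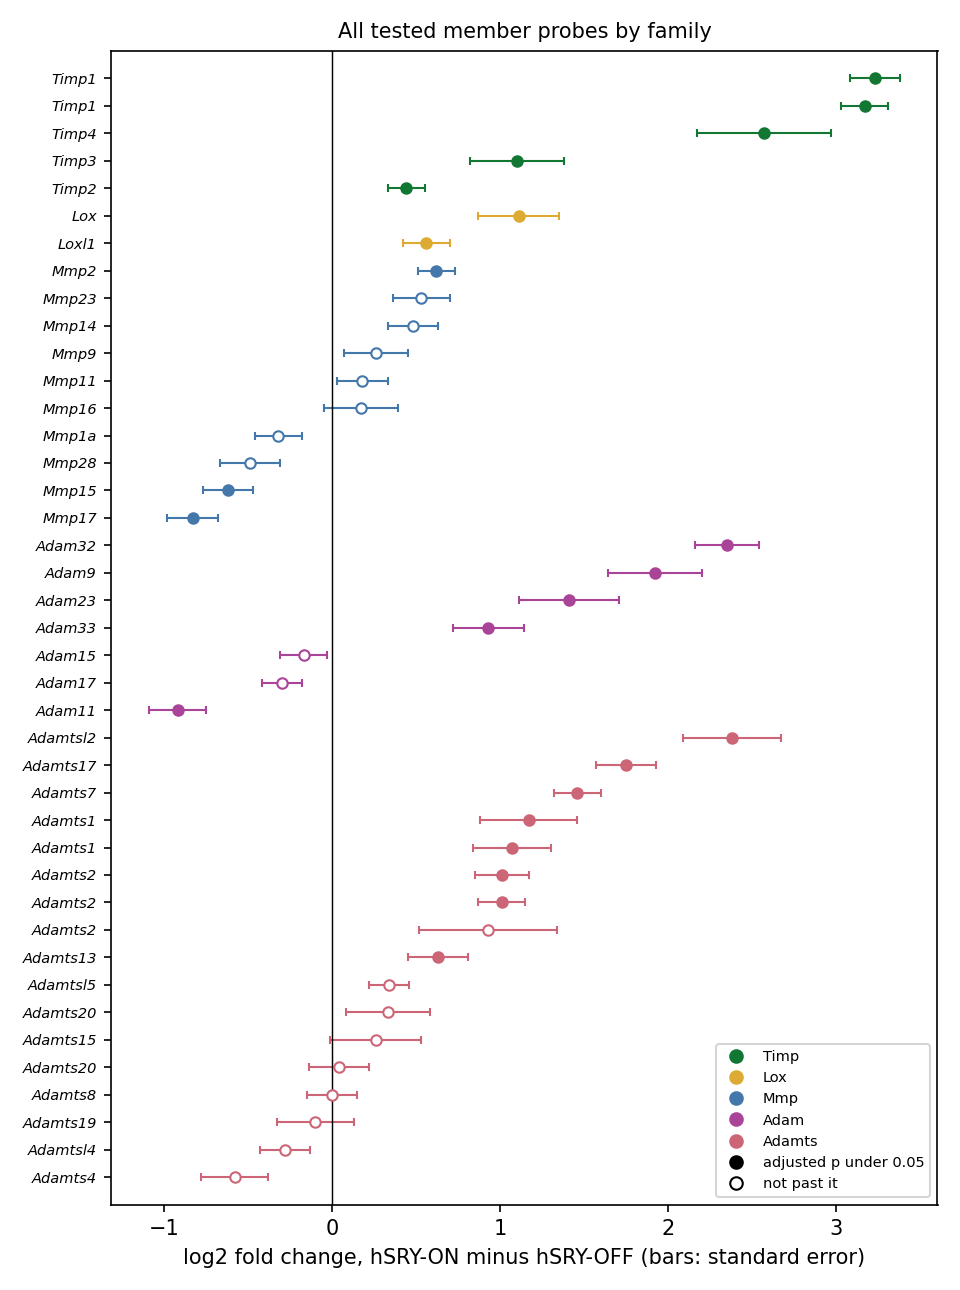
The log2 fold change of each tested member probe (hSRY-ON minus hSRY-OFF, 3 hearts each) with its moderated standard error by limma as a bar, grouped by family. Filled points have an adjusted p under 0.05 and open points do not. All Timp and Lox points are filled and lie right of 0, whereas the Mmp points lie between -0.83 and 0.62.

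Depth was similar among the arrays, which had 47.2% to 51.3% of probes above background. Cardiac markers were present, since all 9 cardiomyocyte genes on the array were tested. Of these, 5 were lower in hSRY-ON hearts and none higher, where 13.7% of all tested probes were lower. Single hearts stood apart in markers of other tissues. The heart of hSRY-ON replicate 1 read 13.74 for Scgb1a1, the club cell secretory protein of the airway, and 11.44 for Ltf, lactoferrin, whereas the other hearts read at most 6.52 and 7.27. Without that heart, 20 of the 23 member calls were kept, and Timp2, Loxl1 and Mmp15 missed the threshold with adjusted p of 0.0824, 0.0726 and 0.0533 by limma. In hSRY-ON replicate 3 the neutrophil genes S100a8, Ngp and Camp read 11.29, 7.01 and 6.97, against at most 9.61, 4.98 and 5.75 elsewhere, and in hSRY-OFF replicate 3 Ucp1, the uncoupling protein of brown fat, read 8.88, against 4.64 and 5.03 in its group. Without hSRY-ON replicate 3, 21 of the 23 calls were kept, and without hSRY-OFF replicate 3, 22.

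All 4 tissue inhibitors were higher in hSRY-ON hearts, in each of their 5 tested probes. The median log2 fold change was 2.57, which is the fitted value of Timp4, 1.89 with Timp4 set at its bound and 1.05 without background correction. Timp1, a secreted inhibitor that many tissues make more of after injury, was the most changed of all members. One of its probes read 9.82, 9.72 and 9.86 in hSRY-OFF hearts and 13.14, 13.06 and 12.71 in hSRY-ON hearts. The other read 9.68, 9.67 and 9.91 against 13.11, 13.10 and 12.74. Within each group the hearts differed little, and the groups lay far apart in both probes. The log2 fold changes were 3.17 ± 0.14 and 3.23 ± 0.15 (moderated SE of limma, n = 3 against 3), which are 9.0-fold and 9.39-fold, with an adjusted p of 3.44e-05 by limma in both.

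Timp4, the inhibitor that in adults is most typical of the heart, was below background on all hSRY-OFF arrays and above it on all hSRY-ON arrays. It read 4.82, 4.55 and 4.89 in hSRY-OFF hearts, and 7.66, 8.0 and 6.30 in hSRY-ON hearts, of which replicate 3 was the lowest. Against the lowest signals above background on the hSRY-OFF arrays, it was at least 3.71-fold higher, with an adjusted p of 0.00331 by limma. Timp3, which stays bound to the matrix and also blocks Adam17 and the Adamts enzymes that cut aggrecan, was nearly the same in the 3 hSRY-OFF hearts, at 10.79, 10.80 and 10.81. The hSRY-ON hearts read 11.37, 12.57 and 11.77, all higher but spread widely, for a log2 fold change of 1.10 ± 0.28 (2.14-fold, adjusted p = 0.0232 by limma). A second probe for Timp3 was above background on no array.

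Timp2, which blocks Mmp2 and also helps Mmp14 to activate its precursor, changed least. It read 12.24, 12.19 and 12.36 in hSRY-OFF hearts against 12.74, 12.73 and 12.65 in hSRY-ON hearts. The groups did not overlap, and the log2 fold change was 0.44 ± 0.11 (1.36-fold, adjusted p = 0.0251 by limma). Timp2 lost its call when replicate 1 or 2 of either group was left out, at 0.40 to 0.43, at 0.31 without normalization between arrays and at 0.42 (adjusted p = 0.0512 by limma) with each array scaled to its median. Timp3 lost it without hSRY-OFF replicate 1 (adjusted p = 0.066 by limma) or replicate 2 (0.0638), with the log2 fold change at 1.10 in both.

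Both lysyl oxidases that could be tested were higher as well. Lox, the founding member, read 10.35, 10.38 and 10.81 in hSRY-OFF hearts and 12.13, 11.34 and 11.42 in hSRY-ON hearts, and its log2 fold change was 1.11 ± 0.24 (2.16-fold, adjusted p = 0.0119 by limma). The highest heart was hSRY-ON replicate 1, without which the log2 fold change was 0.86 (adjusted p = 0.0216). Loxl1, which acts mainly on elastin, read 12.51, 12.72 and 12.75 against 13.41, 13.09 and 13.19, a log2 fold change of 0.56 ± 0.14 (1.48-fold, adjusted p = 0.0209). The groups of both genes did not overlap. Besides hSRY-ON replicate 1, Loxl1 lost its call without hSRY-OFF replicate 1, at 0.49 (adjusted p = 0.0831 by limma), and without normalization between arrays, at 0.44. Loxl4 was above background on 1 array and Loxl3 on none.

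**Figure D2:**
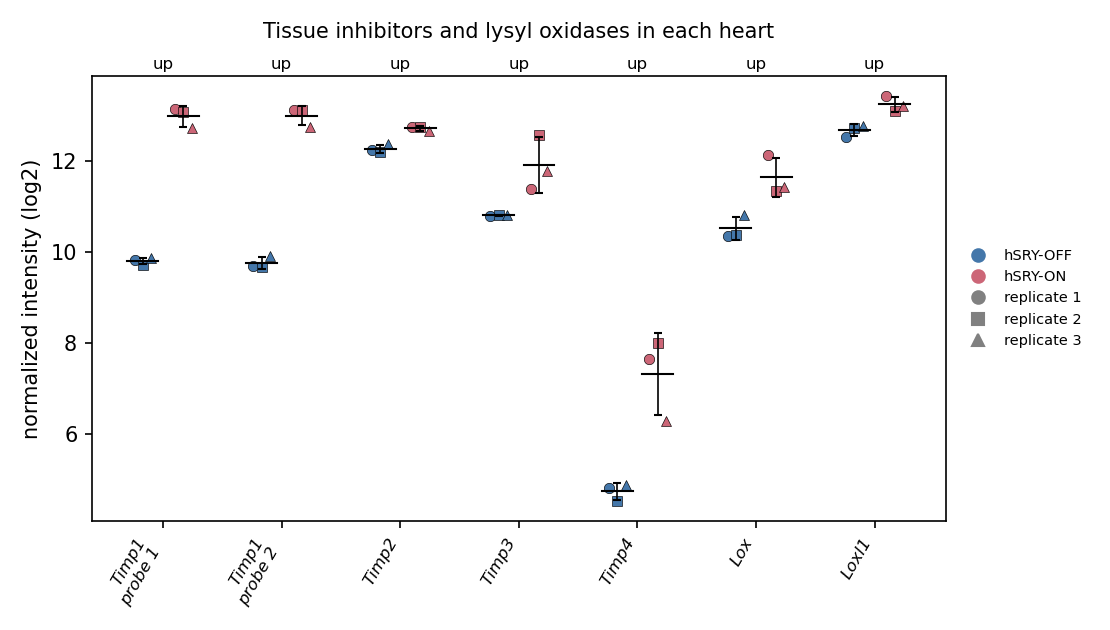
Normalized log2 intensity of the tissue inhibitor and lysyl oxidase probes in each heart (circle, square and triangle for replicates 1, 2 and 3), with the mean as a line and the SD as a bar. In all 7 probes the hSRY-ON hearts lie above the hSRY-OFF hearts, with the widest gap in the 2 Timp1 probes.

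The calls among the metalloproteinases went in both directions and were about as frequent as over the whole array. Of the 10 tested Mmp probes, 1 was higher, 2 were lower and 7 were not called, 30% called against the 27.5% of all tested probes, with a median log2 fold change of 0.17. Mmp2, gelatinase A, the enzyme that digests basement membrane and denatured collagen, was the one that rose. It read 12.76, 12.85 and 12.91 in hSRY-OFF hearts and 13.52, 13.45 and 13.40 in hSRY-ON hearts. The hearts of each group lay close together, and the log2 fold change was 0.62 ± 0.11 (1.53-fold, adjusted p = 0.00641 by limma). Without normalization between arrays it was 0.45 and not called.

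The membrane-type enzymes did not move as a group. Mmp15 read 11.22, 11.11 and 11.04 in hSRY-OFF hearts and fell to 10.54, 10.25 and 10.72 in hSRY-ON hearts, a log2 fold change of -0.62 ± 0.15 (adjusted p = 0.0199 by limma). Mmp17, which is held to the membrane by a lipid anchor, read 5.96, 5.88 and 5.68 in hSRY-OFF hearts and was above background on no hSRY-ON array, so that it was at least 1.43-fold lower there (adjusted p = 0.00648). Mmp14, the surface enzyme that activates the Mmp2 precursor, read 11.12, 11.44 and 11.59 against 11.73, 11.97 and 11.90. Its groups did not overlap, but the log2 fold change of 0.48 ± 0.15 had an adjusted p of 0.0522. Mmp16 had a log2 fold change of 0.17 ± 0.22, with overlapping groups.

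The call of Mmp15 was lost without hSRY-OFF replicate 1 (log2 fold change -0.57, adjusted p = 0.077 by limma) or replicate 2 (-0.62, adjusted p = 0.0564). That of Mmp14 was gained without hSRY-OFF replicate 3, at 0.59 (adjusted p = 0.0332), and under 5 further settings that kept all hearts.

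Mmp23, which loses its membrane anchor when furin cuts it, read 9.60, 9.92 and 9.78 against 10.58, 10.05 and 10.25, with a log2 fold change of 0.53 ± 0.17 and an adjusted p of 0.0536 by limma. It passed the threshold in 8 of 16 alternatives, among them the one without hSRY-ON replicate 2 (0.65, adjusted p = 0.0374). Mmp9, gelatinase B, which neutrophils and macrophages carry, was above background on 1 hSRY-OFF array and on the 3 hSRY-ON arrays, but its log2 fold change was 0.26 ± 0.19 with overlapping groups. The stromelysin Mmp11 had 0.18 ± 0.15. Mmp28 and Mmp1a, with -0.49 ± 0.18 and -0.32 ± 0.14, were not called although their groups did not overlap, and Mmp28 was called without hSRY-OFF replicate 2 (-0.65, adjusted p = 0.026).

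**Figure D3:**
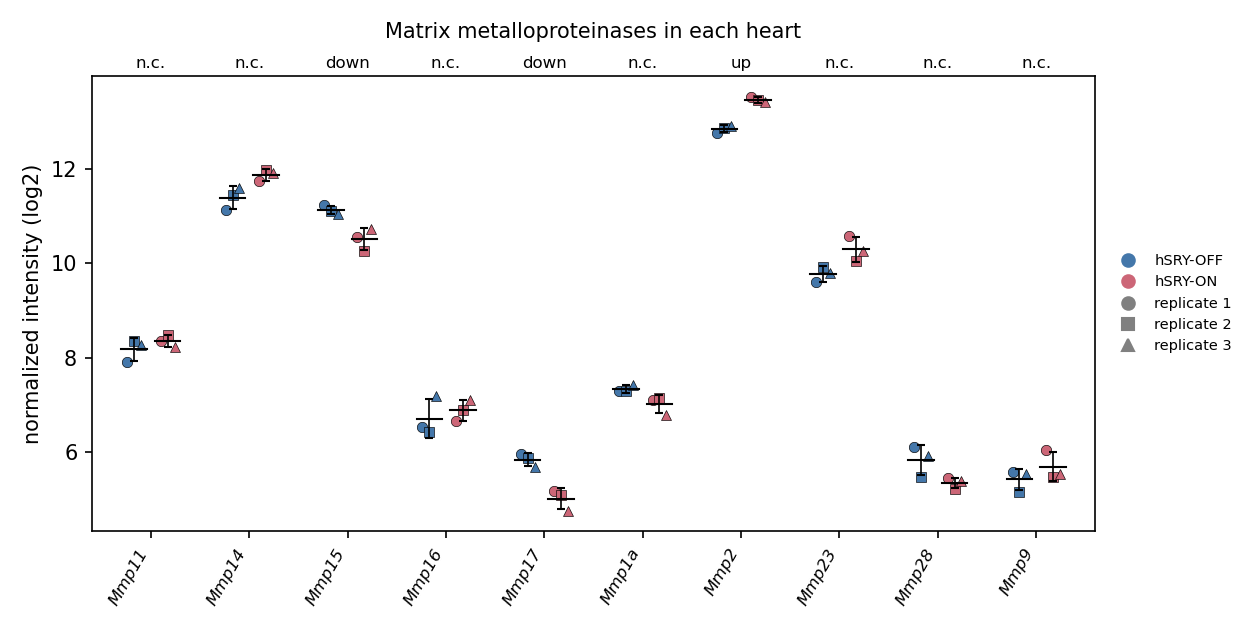
Normalized log2 intensity of the 10 tested Mmp probes in each heart (circle, square and triangle for replicates 1, 2 and 3), with the mean as a line and the SD as a bar; the word above each probe gives its call (n.c., not called). Mmp2 is higher and Mmp15 and Mmp17 are lower in hSRY-ON hearts, and the other 7 probes are not called.

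Most of the Mmp genes that could not be tested lie side by side in the genome. In the RefSeq annotation of GRCm38.p6, 10 of the 22 Mmp genes are neighbours on chromosome 9, namely Mmp13, Mmp12, Mmp1b, Mmp3, Mmp1a, Mmp10, Mmp8, Mmp27, Mmp20 and Mmp7, which include the classical collagenases, stromelysins and matrilysin. These 10 genes had 15 probes, of which 1, a probe for Mmp1a, was tested. Of the 12 Mmp genes elsewhere, 9 were tested. The 10 promoters of the neighbours differed from the other Mmp promoters in their letters too. TGACTCA occurred in 6 of the 10 and TATAAA in 7, GGGCGG in none. In the 7 other Mmp genes with a promoter, TGACTCA occurred in none, TATAAA in 1 and GGGCGG in 5. In the Mmp3 promoter printed above the AP-1 string begins 46 bases before the start and lies on the reverse strand, and in that of Mmp13 it begins 35 bases before the start. All 3 probes for Mmp3 were below background on all 6 arrays, and 1 of the 3 for Mmp13 was above it on 1 array.

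Among the Adam genes, 4 of the 7 tested probes were higher, 1 was lower and 2 were not called (71.4% called, against 27.5% of all tested probes). The share of the Adam probes depended on the probe filter, since of the called ones Adam23 alone was above background on all 6 arrays. With no probe filter, 5 of the 42 Adam probes were called, where 12.4% of all probes were. The median log2 fold change of 0.93 depended on which probes were counted, with -0.17 over the Adam probes above background on all 6 arrays, -0.01 over all Adam probes and 0.28 without background correction. Another 28 of the 42 Adam probes were above background on no array, among them the probes for many genes that are known from testis and sperm. Adam32, itself best known from testis and without the catalytic residues, had the highest fitted value. It read 5.51, 5.09 and 4.91 in hSRY-OFF hearts, above background in 1 of them, and 7.70, 7.58 and 7.31 in hSRY-ON hearts. The groups did not overlap, and the fitted log2 fold change was 2.35 ± 0.19 (adjusted p = 0.000258 by limma), set against a control level that was not above background in 2 of 3 hearts.

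Adam9, an active sheddase, read 6.14, 5.93 and 4.97 in hSRY-OFF hearts and 7.57, 7.55 and 7.70 in hSRY-ON hearts. The lowest heart was hSRY-OFF replicate 3, which was below background, and the log2 fold change was 1.92 ± 0.28 (3.80-fold, adjusted p = 0.00268 by limma). Adam23, which has no protease activity and takes part in cell adhesion, was almost constant in hSRY-OFF hearts at 6.47, 6.50 and 6.49. It read 7.99, 8.52 and 7.19 in hSRY-ON hearts, 1.41 ± 0.30 higher on the log2 scale (2.66-fold, adjusted p = 0.0117). Adam33, an active enzyme of mesenchymal cells and above background on 1 hSRY-OFF array, read 5.28, 5.45 and 5.10 against 6.62, 5.87 and 6.12, with a log2 fold change of 0.93 ± 0.21 (adjusted p = 0.0139), and was not called without normalization between arrays (0.78).

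The best-known sheddases were not among the called genes. Adam17, which releases tumor necrosis factor and ligands of the EGF receptor, read 9.48, 9.60 and 9.42 in hSRY-OFF hearts and 9.29, 9.14 and 9.17 in hSRY-ON hearts. The groups did not overlap, but the log2 fold change of -0.30 ± 0.12 had an adjusted p of 0.0955 by limma, and it was called in 1 of 16 alternatives, the one without background correction. Adam10, which cuts Notch, had 1 probe, and this was above background on no array. Adam15 had a log2 fold change of -0.17 ± 0.14 in its tested probe. Adam11, an inactive relative of Adam23, was the member of this family that fell, from 6.04, 5.81 and 6.44 in hSRY-OFF hearts to below background on all hSRY-ON arrays, at least 1.70-fold (adjusted p = 0.00738). Its other 2 probes were above background on at most 2 arrays.

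Adamts genes were the most often measurable of the protease families, with 17 of 22 probes tested. Of these, 8 probes of 6 genes were higher and 9 were not called (47.1% called, against 27.5% of all tested probes). None was lower by limma, although 1 that fell, Adamts4, was under 0.05 before adjustment. Adamts17 and the weaker Adamts1 probe, above background in hSRY-ON hearts alone, had to differ to be tested. Among the Adamts probes above background on all 6 arrays, 5 were called. The median log2 fold change was 0.63, or 0.19 without background correction. Adamts2 removes the amino-terminal propeptide of fibrillar procollagens. Its probe with the highest mean signal read 11.71, 11.79 and 12.07 in hSRY-OFF hearts and 13.10, 12.89 and 12.62 in hSRY-ON hearts. The log2 fold change was 1.01 ± 0.16 (2.02-fold, adjusted p = 0.00409 by limma), and the next probe gave 1.01 ± 0.14 (adjusted p = 0.00212). The dimmest of the 3 read 6.87, 6.43 and 5.08 against 7.20, 7.0 and 6.96. It differed by a like amount, 0.93 ± 0.41, but was not called (adjusted p = 0.13).

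Adamts7, which cuts cartilage oligomeric matrix protein and acts in vascular smooth muscle, read 7.98, 8.12 and 7.81 in hSRY-OFF hearts and 9.63, 9.39 and 9.29 in hSRY-ON hearts. This was a log2 fold change of 1.46 ± 0.14 (2.76-fold, adjusted p = 0.000585 by limma). Adamts17, an enzyme linked to fibrillin, was above background on no hSRY-OFF array and on all hSRY-ON arrays, where it read 7.16, 6.72 and 7.10, at least 2.96-fold higher (adjusted p = 0.000748). Adamtsl2 lacks the protease domain, binds fibrillin and latent TGF-beta binding protein, and changed most in this family. It read 7.82, 7.69 and 8.49 in hSRY-OFF hearts against 10.95, 10.08 and 10.11, a log2 fold change of 2.38 ± 0.29 (5.20-fold, adjusted p = 0.00133).

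Adamts1, which cuts versican and aggrecan, was higher in both of its probes. The probe with the higher mean signal read 8.02, 8.43 and 8.73 in hSRY-OFF hearts and 8.94, 9.93 and 9.82 in hSRY-ON hearts, with a log2 fold change of 1.17 ± 0.29 (2.24-fold, adjusted p = 0.0223 by limma). Its groups came within a short distance of each other, and the call was lost without hSRY-OFF replicate 1 (log2 fold change 0.98), hSRY-OFF replicate 2 (1.19), hSRY-ON replicate 2 (0.98) and hSRY-ON replicate 3 (1.04). The other probe was above background on no hSRY-OFF array and was at least 1.89-fold higher in hSRY-ON hearts (adjusted p = 0.0122). Adamts13, the plasma enzyme that cuts von Willebrand factor, had the weakest call, with a log2 fold change of 0.63 ± 0.18 (adjusted p = 0.0376). It was lost in 10 of 14 alternatives, among them no background correction (0.18) and those without hSRY-OFF replicate 2 (0.61) or 3 (0.51) and without hSRY-ON replicate 2 (0.51) or 3 (0.65).

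Adamts4, another enzyme that cuts aggrecan, was not called. It read 7.89, 7.91 and 7.81 in hSRY-OFF hearts and 6.93, 7.74 and 7.20 in hSRY-ON hearts, without overlap, with a log2 fold change of -0.58 ± 0.20 (adjusted p = 0.071 by limma). Without hSRY-ON replicate 2, the heart nearest to the controls, it was -0.80 and called (adjusted p = 0.0108). Adamtsl5 had 0.34 ± 0.12 with groups apart, and Adamtsl4, Adamts15, Adamts19, Adamts8 and both probes of Adamts20 had overlapping groups and log2 fold changes between -0.28 and 0.33.

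**Figure D4:**
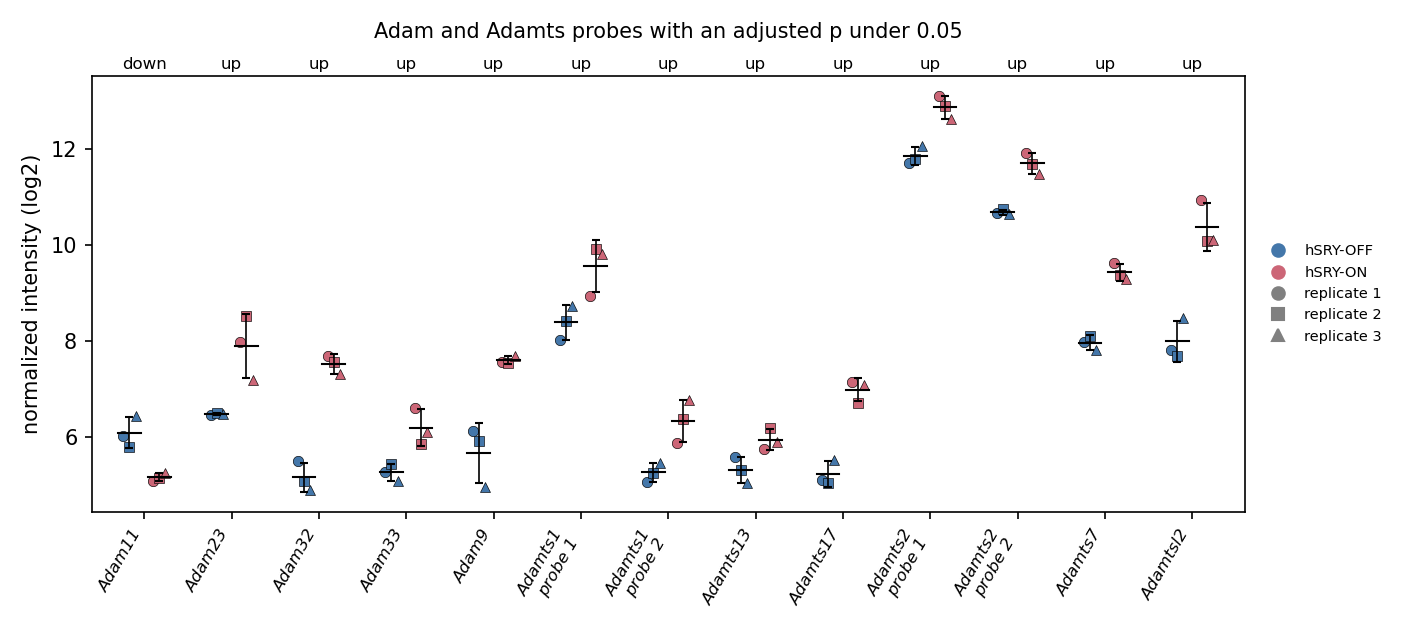
Normalized log2 intensity of the called Adam and Adamts probes in each heart (circle, square and triangle for replicates 1, 2 and 3), with the mean as a line and the SD as a bar; the word above each probe gives its call. Adam11 is the one probe of the 13 that is lower in hSRY-ON hearts.

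Proteins that control these enzymes or are cut by them were followed in 8 lists, in which 18 genes were called. The lists were short, with 2 to 12 tested genes each. Over all tested probes, 27.5% were called, 13.8% as higher and 13.7% as lower. Of the tested genes that activate, block or clear metalloproteinases, 3 of 5 were higher and 1 was lower, with a median log2 fold change of 0.78. Reck, a membrane-bound inhibitor of metalloproteinases, read 7.95, 8.11 and 8.23 in hSRY-OFF hearts and 9.14, 8.68 and 8.88 in hSRY-ON hearts, with a log2 fold change of 0.80 ± 0.15 (adjusted p = 0.00801 by limma). Thbs2, thrombospondin 2, which carries Mmp2 to the receptor that clears it, had 0.97 ± 0.13 (adjusted p = 0.00185). Furin, the convertase that activates the membrane-type enzymes, Adam and Adamts proteins, had 0.78 ± 0.14 (adjusted p = 0.00584). Bsg, also known as the inducer of metalloproteinases Emmprin, was above background on no hSRY-ON array and at least 1.34-fold lower there (adjusted p = 0.0125). Its probe was dim in hSRY-OFF hearts too, at 5.74, 5.6 and 5.92, where the lowest signals above background were 5.39, 5.33 and 5.56. Inhibitors outside the Timp family and an activating enzyme were among the genes that rose.

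The plasminogen system, which can activate metalloproteinases from outside, had 4 tested genes, of which 1 rose and 1 fell. Serpine2, an inhibitor of thrombin and urokinase, had a log2 fold change of 0.78 ± 0.20 (adjusted p = 0.0253 by limma), and Plau, urokinase itself, had -0.65 ± 0.18 (adjusted p = 0.0343). Serpine2 lost its call, at 0.60 to 0.83, without hSRY-OFF replicate 1 or 2 and without hSRY-ON replicate 2 or 3, and Plau, at -0.72 to -0.45, in all fits that left out a heart except that without hSRY-ON replicate 1. Of 6 tested partners in the maturation of Adam10 and Adam17, Tspan17 alone was called. This tetraspanin read 9.32, 9.56 and 9.57 in hSRY-OFF hearts and 11.49, 11.19 and 11.03 in hSRY-ON hearts, a log2 fold change of 1.75 ± 0.15 (3.37-fold, adjusted p = 0.000389).

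On the side of the substrates, none of the 6 tested fibrillar collagen genes was called by limma, with a median log2 fold change of -0.06. Col3a1 had the lowest unadjusted p of these, 0.0247, and 2 of the 6 were under 0.05 before adjustment. Of the procollagen-processing genes besides Adamts2, Pcolce2, an enhancer of procollagen cleavage, was the one of 3 that rose, by 0.58 ± 0.15 on the log2 scale (adjusted p = 0.028). Elastic fibre genes, the other substrate of the lysyl oxidases, had 3 of 10 higher and none lower, with a median of 0.36. So many calls are near the share over all tested probes, of which 27.5% were called, 13.8% as higher. Eln, elastin, read 13.54, 13.64 and 14.03 in hSRY-OFF hearts and 14.59, 14.28 and 14.32 in hSRY-ON hearts, for a log2 fold change of 0.66 ± 0.17 (adjusted p = 0.0236). Emilin1 and Ltbp3 had 0.58 ± 0.13 and 0.39 ± 0.12. Eln lost its call without hSRY-OFF replicate 1 (0.56), hSRY-OFF replicate 2 (0.61) and hSRY-ON replicate 1 (0.56), Pcolce2, at 0.47 to 0.59, without any heart but hSRY-ON replicate 2, and Ltbp3, at 0.33 to 0.44, without any of the 6.

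Of the proteoglycans that Adamts1 and Adamts4 cut, Ncan, neurocan, was above background on hSRY-ON arrays alone. There it read 9.55, 7.03 and 7.23, highest in the heart of replicate 1, and it was at least 5.69-fold higher (adjusted p = 0.00752 by limma), or at least 3.28-fold without that heart, whereas Vcan and Acan were above background on at most 2 arrays. Sheddase substrates had 5 of 12 higher and 1 lower, with a median of 0.41. Nrg1, the neuregulin that signals from endothelium to cardiomyocytes, was above background on no hSRY-OFF array and read 8.96, 6.73 and 7.53 in hSRY-ON hearts, at least 4.96-fold higher (adjusted p = 0.00945), or at least 3.27-fold without replicate 1. Ace, the angiotensin-converting enzyme, read 5.42, 5.19 and 5.94 against 8.47, 7.72 and 7.15, with a log2 fold change of 2.27 ± 0.34 (adjusted p = 0.00275). Areg, above background on hSRY-ON arrays alone, was at least 1.64-fold higher there (adjusted p = 0.00801 by limma). Like Ncan and Nrg1, it had to differ to be tested at all. Cdh2 and App rose too, App losing its call without any 1 of the hSRY-OFF hearts or without hSRY-ON replicate 2, at 0.42 to 0.52. Cdh5, the cadherin of endothelial junctions, was the substrate that fell, with a log2 fold change of -0.72 ± 0.15 (adjusted p = 0.0109).

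**Figure D5:**
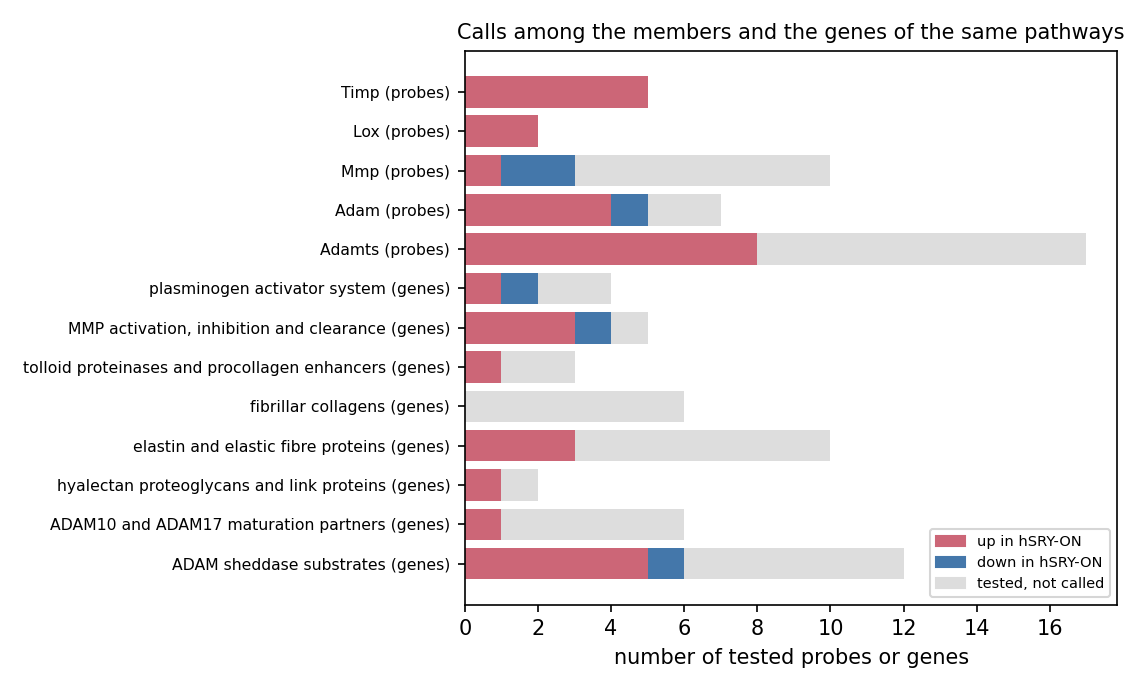
Number of tested probes (families of members) or genes (lists of the same pathways) that were higher, lower or not called in hSRY-ON hearts by limma at an adjusted p under 0.05. The Timp and Lox bars are wholly red, and the fibrillar collagen bar is wholly grey.

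Markers of cell types went in different directions. The counts of called genes here and in the next paragraph stand beside 27.5% called over all tested probes, 13.8% as higher and 13.7% as lower. Of 10 macrophage genes tested, 7 were higher and none lower, and their summed level on the log2 scale was 12.19 to 12.56 in hSRY-OFF hearts and 13.41 to 13.44 in hSRY-ON hearts. Emr1, which encodes a surface antigen that defines mouse macrophages, had a log2 fold change of -0.21 and was not called. Of the fibroblast genes 1 of 7 was higher, Tcf21, and the sums were 14.97 to 15.11 against 14.86 to 15.01. Smooth muscle and pericyte genes had 1 of 5 higher, Acta2, which carried most of their sums of 14.74 to 15.01 against 15.28 to 15.41. Their median log2 fold change was -0.42, with -0.42 for Myh11, -0.43 for Pdgfrb, -0.57 for Rgs5 and 0.47 for Cspg4, none of them called. Endothelial genes had 1 of 7 higher and 3 lower, with sums of 14.76 to 14.86 against 14.59 to 14.73. For the cardiomyocyte genes the sums, which rest on probes near the brightest of the array, were 17.26 to 17.41 against 17.13 to 17.26, whereas the median log2 fold change was -0.51 and Pln, Tnni3 and Ryr2 had -1.47, -1.13 and -1.09.

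Neutrophil genes had none of 4 called by limma, with 1, S100a8, under 0.05 before adjustment, and their sums were 9.38 to 9.75 against 9.78 to 11.88. Genes typical of fat had 2 of 3 higher, Ucp1 and Adipoq, with sums of 7.64 to 9.42 against 9.45 to 11.14 that Ucp1 carried. The groups of Ucp1 overlapped, Fabp4 was above background on 2 hSRY-OFF arrays and on no hSRY-ON array, and Plin and Cidec were on none. Those of liver had both tested genes higher, Ttr and Ahsg, with sums of 8.41 to 8.60 against 10.37 to 11.60, while Alb, albumin, was below background on all arrays. Of lung epithelium 2 genes, Sftpb and Ager, were tested and none was called by limma, although both were under 0.05 before adjustment, with sums of 7.24 to 7.88 against 7.81 to 13.76. Mast cell, lymphocyte and erythroid genes had 1 of 4 higher, 1 of 2 lower and 1 of 6 lower, with sums of 7.61 to 7.96 against 7.98 to 8.15, 7.64 to 8.01 against 7.37 to 7.60 and 15.61 to 15.99 against 15.68 to 15.82. The part of these cells in the changes of the proteases and inhibitors was not tested.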

How the data were processed

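RNA of 3 hSRY-OFF and 3 hSRY-ON hearts was hybridized, 1 array each, to MouseRef-8 v2.0 BeadChips. For each probe the authors deposited a mean bead intensity (linear scale, not normalized, no background subtracted) and a detection p-value against the negative-control beads of each array. The methods name the R package TCC for normalization and testing without settings, and the processing notes name limma. How the beads were summarised is not given in the sources used here.

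The intensities were processed with limma 3.58.1 in R 4.3.3. Its neqc function corrected the background by normexp (parameters inferred through the detection p-values, offset 16), applied quantile normalization and took log2. Probes detected at p under 0.05 on at least 3 of 6 arrays were fitted with lmFit and eBayes, hSRY-ON against hSRY-OFF with no covariate, and the p-values, all two-sided, were adjusted over the 12970 tested probes by the Benjamini-Hochberg method. Where all arrays of a group were below background, the fold is a bound only, set against the lowest signal above background on each of those arrays. Nothing says whether the hearts of a group came from separate litters, and the p-values measure the spread between these 6 hearts. With 3 arrays a group, their number limits the precision. The standard errors are the moderated ones of eBayes, which draws the variance of each probe toward a value shared by all tested probes.

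Any tested member probe could be named, with all tested probes of its gene, and of each pathway list the called members with the largest increase and decrease and further called ones. Genes of the pathway and cell type lists were each given by the tested probe with the highest mean signal. Where none was tested, the probe with the highest mean signal was used. The members, the lists and the tests were chosen with earlier results of these data known. Promoters and gene positions came from RefSeq tables of GRCm38.p6, in which all 73 member genes were matched. The steps were tested on simulated data. Alternatives covered background correction, scaling, the probe filter, the variance model, the replicate block and each heart left out. Plots were made in Python 3.11.15 using matplotlib 3.10.9.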

Additional observations from a re-analysis of the deposited data

How the results depend on the processing

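Under the alternatives the tested member probes kept their direction and their side of the threshold 579 times, lost the call 33 times, gained one 17 times and turned in direction 6 times. Directions were compared on values rounded to 2 decimals, so Adamts8, at 0.00 in the main fit, could not be counted as turning. It ranged from -0.14 to 0.08 and was never called. The reversals were in probes with no call, namely 1 Adamts20 probe, at -0.09 without normalization between arrays and -0.06 to 0.19 over the fits that left out a heart, negative in 4, and Adamts19, at -0.35 to 0.11 over those fits and positive without hSRY-ON replicate 1. Both Timp1 probes, Timp4, Lox, Adam9, Adam11, Adam23, Adam32, Adamts7, Adamts17, Adamtsl2, Mmp17, the weaker Adamts1 probe and the brighter pair of Adamts2 probes kept their calls wherever they were tested, Timp1 at 2.99 to 3.35. Called Mmp probes numbered 5 without background correction, with an offset of 50 or with an intensity trend, where Mmp14 and Mmp23 were added, and 1 without normalization between arrays, which also left 1 called lysyl oxidase, 8 called genes of the same pathways and 1897 called probes in all. Requiring detection on all 6 arrays left 1 lower member, 1 called Adam probe and 5 called Adamts probes, since fewer probes were tested. When each heart was left out in turn, called members numbered 18 to 23, called Timp probes 3 to 5, called lysyl oxidases 1 to 2 and all called probes 2239 to 3714, the fewest without hSRY-OFF replicate 1. The replicate numbers did not pair the hearts (correlations of same-numbered deviations from the group means were -0.02, 0.04 and -0.07). With the replicate block, 20 of the 23 member calls were kept, Timp2, Loxl1 and Adamts13 being lost, 1 lysyl oxidase was called and 2842 probes were called in all. Where no alternative's own construction shows why a call moved, the cause was not tested. Of the 103 member probes, 62 were above background on fewer than 3 arrays and could not be tested.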

Other observations

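Of the tissue inhibitor genes, 3 lie inside the annotated span of a synapsin gene, and this was looked up after the values had been seen. Timp1 lies within Syn1, Timp3 within Syn3 and Timp4 within Syn2. In the RefSeq promoter table Timp1 and Syn1 are on opposite strands, as are Timp4 and Syn2.

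Synapsins coat the vesicles of nerve endings. Both probes of Syn1 were higher in hSRY-ON hearts. The one with the higher mean signal read 5.45, 5.35 and 5.90 in hSRY-OFF hearts and 7.49, 7.17 and 7.07 in hSRY-ON hearts, a log2 fold change of 1.68 ± 0.19 (adjusted p = 0.00092 by limma). The other was above background on hSRY-ON arrays alone and was at least 1.34-fold higher (adjusted p = 0.00713). Syn2 went the other way from Timp4. It read 7.0, 7.19 and 7.58 in hSRY-OFF hearts and 6.35, 5.41 and 6.24 in hSRY-ON hearts, a log2 fold change of -1.26 ± 0.27 (adjusted p = 0.0123). Syn3 was above background on no array. Probe sequences were not used here, and the part of each strand in these signals was not tested.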
